A study of Mus musculus with 7 samples.

Results

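The genes of the extracellular WNT signal, its receptors and its antagonists were taken as the protein-coding genes of the deposited count file whose symbols name a WNT ligand, a Frizzled receptor, a secreted Frizzled-related protein or a Dickkopf protein, plus Lrp5, Lrp6, the 4 TCF/LEF genes, Axin2, Rspo1 to Rspo4, Wif1 and Frzb. These are 50 of 43629 genes in the file, of which 21551 are protein-coding. All libraries were polyA RNA from the E14 mouse ES cell line (129/Ola background) or cells differentiated from it. The knockout ES group holds 3 libraries of cells labelled as Ago2 knockouts, Ago2 being the Argonaute protein that carries microRNAs to their targets, grown in 15% serum with 100 U/mL of the cytokine LIF: 1 labelled C4 and 2 labelled 5-3, the names of 2 lines. The other groups were driven towards extra-embryonic endoderm (XEN) for 5 days, in medium with 15% serum to which activin A (10 ng/mL) and the all-trans form of retinoic acid (0.1 µM) were added. They comprise 2 wild-type libraries, A and B, and 2 Ago2 knockout libraries, 1 of each line. Below, "XEN cells" means cells given this treatment. Wild-type ES cells were not analysed here, so for wild-type XEN cells against knockout ES cells the genotype and the differentiation cannot be told apart. Wording such as "from ES to wild-type XEN cells", where ES stands for the knockout ES group, compares groups and follows no cells over time. The knockout rests on these 2 lines, and nothing in the labels tells if the libraries of 1 group are separate cultures, so p-values measure the spread between these libraries, which may in part be technical.

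WNT proteins are secreted ligands that bind Frizzled receptors together with the co-receptors LRP5 and LRP6. Binding stops the destruction of β-catenin, which then enters the nucleus and turns on genes through the TCF/LEF transcription factors, while other ligands act through Frizzled without β-catenin on cell polarity and movement. R-spondins strengthen the signal, and secreted Frizzled-related proteins, Dickkopf proteins and WIF1 mostly weaken it. In mouse embryonic stem (ES) cells β-catenin signalling is known to help maintain self-renewal, and in the early embryo the extra-embryonic endoderm is a known source of WNT antagonists that act on the neighbouring epiblast.

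Counts per library ran from 13941826, in the knockout XEN library labelled C4, to 48650113. Ago2 itself stood at 94.4 CPM (read counts scaled to the size of the library by TMM) in the ES library labelled C4 and 122 in the XEN library labelled C4, against 9.37 and 9.65 in the 5-3 ES libraries, 9.94 in the 5-3 XEN library and 394 and 432 in the wild-type XEN libraries. Both libraries labelled C4 thus held far more Ago2 RNA than the 5-3 libraries and less than the wild-type XEN libraries. Whether these cells lack the protein, as their label says, cannot be told from the counts. They are called "labelled C4" throughout. Directions drawn from the knockout groups are given with the values of both lines, or with where both stood against the other groups. Which part of the gene was removed is not given in the sources used here. All 12 genes of a primitive and visceral endoderm list were higher in wild-type XEN than in knockout ES cells, and 9 of the 12 were higher in knockout XEN than in ES cells. Between the XEN groups, 8 of 8 ES cell genes were lower in knockout than in wild-type XEN cells, as were 11 of the 12 endoderm genes, while 8 of 10 fibroblast and mesenchyme genes were higher. These are calls at an adjusted p under 0.05, as set out below. Over all genes tested, 32.2% were higher in wild-type XEN and 34.8% in knockout XEN than in knockout ES cells. Between the XEN groups 23.9% of all genes were lower and 22.3% higher in knockout cells. The summed levels of these marker lists stand beside the results they moved with.

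Values per library are given in CPM in the fixed order C4, 5-3 and 5-3 for knockout ES cells, A and B for wild-type XEN cells, and C4 and 5-3 for knockout XEN cells. Differences are log2 fold changes ± SE, and adjusted p-values come from edgeR's quasi-likelihood test with Benjamini-Hochberg adjustment over all 18426 genes tested, called at 0.05. The SE was derived from that test, as the absolute log2 fold change divided by the square root of its F statistic. Since CPM does not account for gene length, levels of different genes are compared only as CPM per kb of exon.

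Of the 50 genes, 44 had enough counts to be tested. In knockout against wild-type XEN cells 24 of them were called higher and 6 lower, and 14 did not pass. Over all 18426 genes 46.2% were called, 22.3% higher and 23.9% lower. The median log2 difference was 1.88 over the 44 genes and 0.00 over all genes, and the median absolute difference was 2.18 against 0.90. In knockout XEN cells against knockout ES cells 28 were called higher and 6 lower, where 69.0% of all genes were called (34.8% higher and 34.3% lower), with medians of 2.32 and -0.08. In wild-type XEN cells against knockout ES cells 22 were called higher and 11 lower, where 62.5% of all genes were called (32.2% higher and 30.3% lower), with medians of 1.09 and -0.03. Summed over the 50 genes the level was 622 to 748 CPM in knockout ES, 1079 to 1211 in wild-type XEN and 2177 to 2201 in knockout XEN cells. These comparisons share libraries, so they are 3 views of the same 3 groups. Library B of the wild-type group bears on the first comparison: without it 15 of the 44 were called higher and 3 lower.

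**Figure D1:**
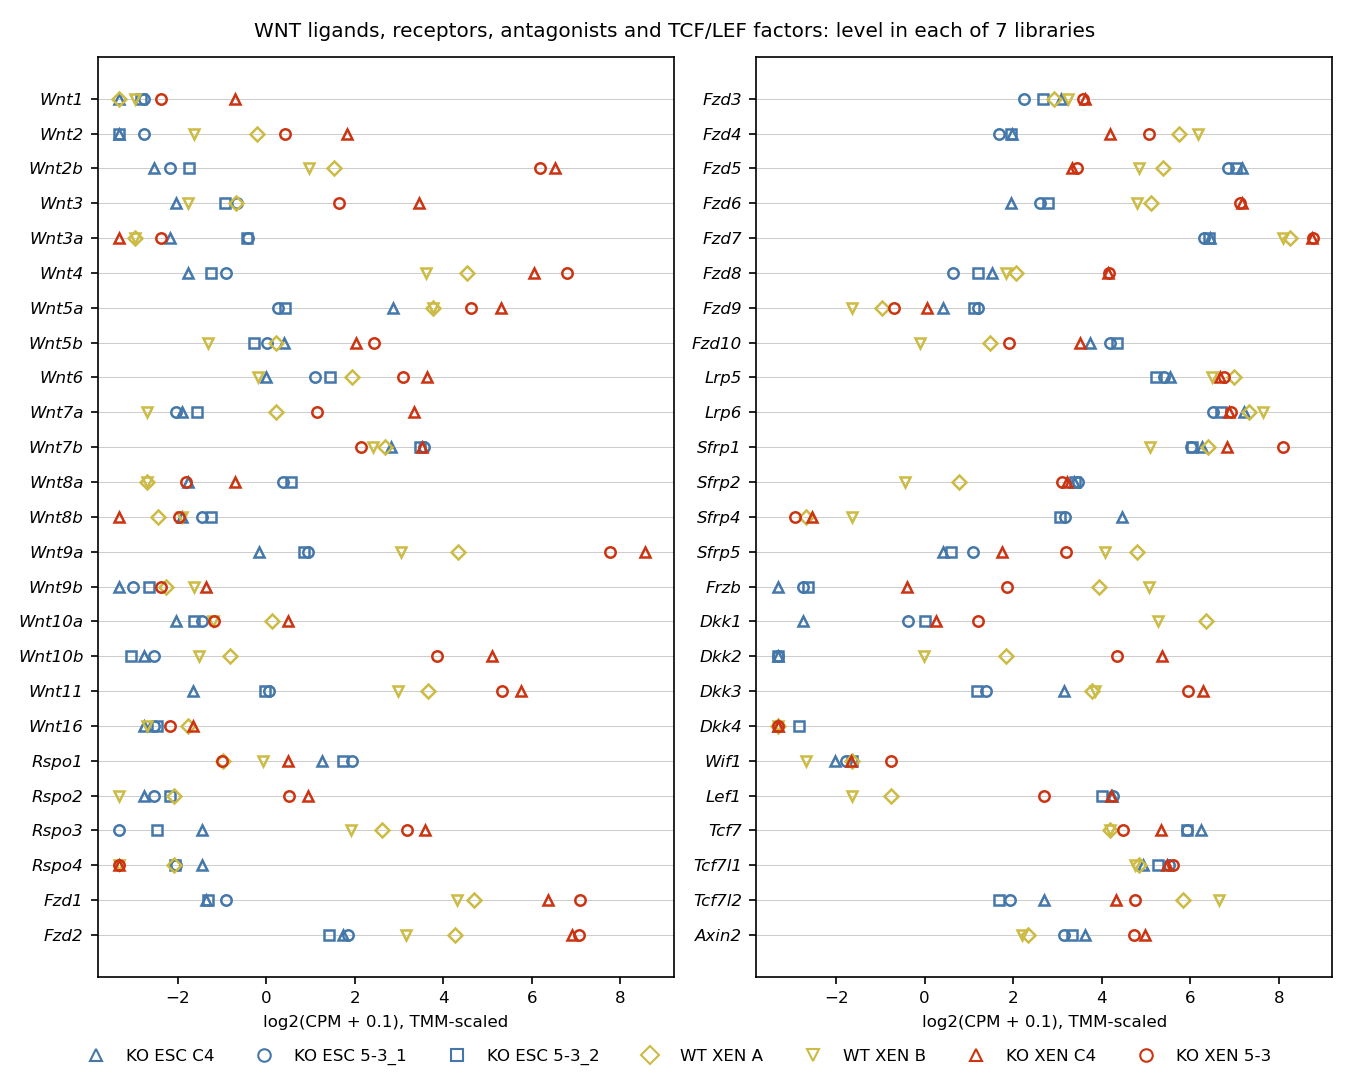
Levels of the 50 WNT pathway genes as log2(CPM + 0.1), 1 row per gene ordered by role and 1 marker per library, coloured by group. In most ligand rows the 2 knockout XEN markers lie farthest to the right. In the rows of Dkk1 and Frzb the wild-type XEN markers do.

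The promoters of 34 of the 50 genes were matched by symbol in RefSeq (build GRCm38.p6), as the 250 bases before a transcription start, in 42 windows since 5 genes have several starts there. Those of 6 genes that were called in knockout against wild-type XEN cells are shown because they come from different roles in the pathway and moved in different directions, and because the windows shown hold no exon of GENCODE M21: Axin2, Wnt10b, Wnt11, Fzd1 and Dkk2 were higher and Sfrp5 was lower. Each is written 5′ to 3′ along the gene's strand and ends at the base before the start, which for Wnt11 is the first of 2 listed. Capitals mark matches, on either strand, to the TCF/LEF core CTTTGAT, the TATA box TATAAA or the GATA core AGATAA.
Axin2, chr11:108920099-108920348, plus strand: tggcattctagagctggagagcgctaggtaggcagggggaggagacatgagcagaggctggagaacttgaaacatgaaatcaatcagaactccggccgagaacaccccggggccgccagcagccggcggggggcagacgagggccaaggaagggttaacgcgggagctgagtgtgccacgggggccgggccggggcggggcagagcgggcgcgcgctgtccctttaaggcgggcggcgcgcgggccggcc
Wnt10b, chr15:98778151-98778400, minus strand: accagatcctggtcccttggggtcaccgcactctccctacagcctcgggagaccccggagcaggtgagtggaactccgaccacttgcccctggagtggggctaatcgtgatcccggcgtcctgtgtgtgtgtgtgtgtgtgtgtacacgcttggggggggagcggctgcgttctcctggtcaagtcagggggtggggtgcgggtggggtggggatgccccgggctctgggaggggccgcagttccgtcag
Wnt11, chr7:98834862-98835111, plus strand: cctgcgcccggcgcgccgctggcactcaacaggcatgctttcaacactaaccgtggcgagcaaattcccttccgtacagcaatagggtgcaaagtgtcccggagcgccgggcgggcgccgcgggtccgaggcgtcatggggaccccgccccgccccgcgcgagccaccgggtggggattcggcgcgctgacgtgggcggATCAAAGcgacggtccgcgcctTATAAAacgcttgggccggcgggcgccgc
Fzd1, chr5:4758217-4758466, minus strand: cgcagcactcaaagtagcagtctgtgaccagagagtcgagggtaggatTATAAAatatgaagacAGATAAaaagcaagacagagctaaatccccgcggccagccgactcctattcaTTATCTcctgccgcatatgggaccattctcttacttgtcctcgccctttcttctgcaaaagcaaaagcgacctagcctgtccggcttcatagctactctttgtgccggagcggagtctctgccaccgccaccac
Dkk2, chr3:132085042-132085291, plus strand: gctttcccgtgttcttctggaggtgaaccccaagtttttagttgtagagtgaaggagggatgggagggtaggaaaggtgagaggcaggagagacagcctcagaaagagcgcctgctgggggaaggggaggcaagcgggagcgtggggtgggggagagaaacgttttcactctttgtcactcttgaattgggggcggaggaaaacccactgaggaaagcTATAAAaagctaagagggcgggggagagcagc
Sfrp5, chr19:42202253-42202502, minus strand: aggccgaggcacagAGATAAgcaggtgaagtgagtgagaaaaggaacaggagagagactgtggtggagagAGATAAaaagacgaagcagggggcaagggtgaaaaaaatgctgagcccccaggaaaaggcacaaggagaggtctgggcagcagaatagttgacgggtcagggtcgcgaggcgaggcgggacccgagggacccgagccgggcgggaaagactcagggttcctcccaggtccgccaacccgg
The windows of Axin2 and Wnt10b held none of these motifs and were 69.2% and 66.8% G or C, where the median of all promoters was 52.4%. That of Wnt11 held both a TCF/LEF core and a TATA box at 70.8% G or C. The window of Fzd1 held a TATA box and 2 GATA cores, that of Sfrp5 held 2 GATA cores, and that of Dkk2 held a TATA box. Both strands were searched, and no 2 of the marked matches overlap. Among 32851 mouse promoters of the same length 3.21% held the TCF/LEF core, 12.4% the TATA box and 9.99% the GATA core. Of the 42 windows of the 34 genes, 2 (4.76%) held the TCF/LEF core, 8 (19%) the TATA box and 4 (9.52%) the GATA core, each in a different gene. The TCF/LEF core was in windows of Wnt11 and Wnt5b, and the GATA core in those of Fzd1, Sfrp5, Tcf7l2 and Wnt8b. The nuclear receptor element AGGTCA, which retinoic acid receptors are known to bind in pairs, was in 2 of the 42 windows (4.76%, of Tcf7 and Wnt16) and in 14.02% of all promoters. A match describes the letters in the window and does not show that a factor binds there.

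Among the ligands, 16 of 19 were tested. In knockout XEN cells 9 were higher than in wild-type XEN cells, none was lower and 7 did not pass, with a median log2 difference of 2.28. Of all genes 22.3% were higher and 23.9% lower there. Against knockout ES cells 11 were higher in knockout XEN cells, 1 was lower and 4 did not pass, where 34.8% of all genes were higher and 34.3% lower. Wild-type XEN cells had 7 ligands higher than knockout ES cells, 2 lower and 7 that did not pass. In that comparison 62.5% of all genes were called, 32.2% higher and 30.3% lower. Summed over the 19 ligands, CPM per kb was 5.41 ± 1.28 (SD, n = 3) in knockout ES cells, 16.6 ± 7.34 (n = 2) in wild-type XEN cells and 167 ± 44.4 (n = 2) in knockout XEN cells. The lowest knockout XEN library, at 135, lay above the highest wild-type XEN library, at 21.8.

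Wnt9a (ENSMUSG00000000126, chromosome 11, 59306928 to 59333552, plus strand, GRCm38), a ligand best known from skeletal and blood development, made up the largest part of that sum in knockout XEN cells. Its levels were 0.792, 1.83 and 1.7 CPM in knockout ES cells, 19.9 and 8.1 in wild-type XEN cells and 378 and 218 in knockout XEN cells. Both knockout XEN libraries lay above all others, and both wild-type XEN libraries lay above all ES libraries. It rose by 4.41 ± 0.54 (adjusted p = 0.000619) in knockout over wild-type XEN cells, which is 21.2-fold, and by 7.68 ± 0.53 (adjusted p = 9.94e-06) over knockout ES cells. Wild-type XEN cells were higher than knockout ES cells by 3.28 ± 0.47 (adjusted p = 0.00056). Without wild-type library A, the higher of its group, the 5.11 between the XEN groups and the 2.52 over ES cells were still called.

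Wnt10b (ENSMUSG00000022996, chromosome 15, 98770712 to 98778150, minus strand), a β-catenin-activating ligand known for opposing fat cell formation, had the largest log2 rise of the ligands between the XEN groups. It was read at 0.048, 0.072 and 0.02 CPM in knockout ES cells, 0.466 and 0.249 in wild-type XEN cells and 34.3 and 14.3 in knockout XEN cells. Only the knockout XEN libraries exceeded 1 CPM, and the 3 groups did not overlap. It rose by 6.07 ± 0.60 (adjusted p = 0.000298) over wild-type XEN cells, or 67.03-fold, the value being 5.31 without the knockout XEN library labelled C4, and by 8.95 ± 0.61 (adjusted p = 9.19e-06) over knockout ES cells. Wnt2b (ENSMUSG00000027840, chromosome 3, 104945272 to 104961921, minus strand), known from lung, liver and eye development, was nearly silent in ES cells, with 0.072, 0.12 and 0.2 CPM in knockout ES cells, 2.77 and 1.85 in wild-type XEN cells and 91.8 and 72.4 in knockout XEN cells. The order of the groups was the same as for Wnt10b, again without overlap. It rose by 5.15 ± 0.34 (adjusted p = 0.000131) between the XEN groups, or 35.5-fold, and wild-type XEN cells exceeded ES cells by 4.07 ± 0.36 (adjusted p = 5.24e-05).

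Wnt4, which acts in kidney and gonad development, and Wnt11, which is known for its part in cell movement and heart development, were well above the ES level in wild-type XEN cells. For Wnt4 the libraries held 0.192, 0.432 and 0.32 CPM in knockout ES cells, 23.1 and 12 in wild-type XEN cells and 66.5 and 111 in knockout XEN cells. It rose by 2.34 ± 0.40 (adjusted p = 0.00239) from wild-type to knockout XEN cells and by 5.78 ± 0.43 (adjusted p = 2.37e-05) from ES to wild-type XEN cells. Wnt11 was found at 0.216, 0.937 and 0.881 CPM in knockout ES cells, 12.5 and 7.77 in wild-type XEN cells and 54.2 and 40.2 in knockout XEN cells. It was higher by 2.22 ± 0.51 (adjusted p = 0.00909) in knockout XEN cells and by 3.88 ± 0.50 (adjusted p = 0.000304) in wild-type XEN cells over ES cells. For both genes the 3 groups were separate, with knockout XEN cells highest. The Wnt11 call between the XEN groups was lost without wild-type library B (adjusted p = 0.0662) or without the knockout XEN library labelled C4 (adjusted p = 0.0524).

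Wnt3, Wnt5b, Wnt6 and Wnt7a had another pattern: knockout XEN cells exceeded both other groups, and wild-type XEN cells were not distinguished from ES cells. Wnt3 is required for the primitive streak in the mouse embryo, and its libraries held 0.144, 0.528 and 0.42 CPM in knockout ES cells, 0.521 and 0.194 in wild-type XEN cells and 10.8 and 3.02 in knockout XEN cells. The knockout XEN libraries stood above the rest, and the other groups overlapped. It rose by 4.25 ± 0.87 (adjusted p = 0.00551) over wild-type XEN cells, the value being 5.02 without wild-type library A and 3.07 without the knockout XEN library labelled C4, and the difference between wild-type XEN and ES cells was -0.03 ± 0.78 (adjusted p = 0.976). Wnt5b, a relative of Wnt5a that mostly acts without β-catenin, was at 1.22, 0.913 and 0.72 CPM in knockout ES cells, 1.07 and 0.304 in wild-type XEN cells and 3.99 and 5.29 in knockout XEN cells and rose by 2.76 ± 0.61 (adjusted p = 0.00784), the value being 3.85 without wild-type library A and 2.11 without wild-type library B. Wnt6 measured 0.888, 2.04 and 2.62 CPM in knockout ES cells, 3.75 and 0.774 in wild-type XEN cells and 12.2 and 8.4 in knockout XEN cells. Wnt7a, a ligand of limb and brain, was found at 0.168, 0.144 and 0.24 CPM in knockout ES cells, 1.07 and 0.0553 in wild-type XEN cells and 10.02 and 2.12 in knockout XEN cells. Their wild-type libraries A and B differed by several-fold, with A close to or above the ES range. Wnt6 rose by 2.18 ± 0.75 (adjusted p = 0.0441) and Wnt7a by 3.4 ± 1.12 (adjusted p = 0.0377) between the XEN groups. Each of these 2 calls was lost in 7 of the 14 alternative analyses run. For Wnt6 these included 1 library left out at a time: without the first 5-3 ES library (adjusted p = 0.065), without the second 5-3 ES library (adjusted p = 0.0595), without wild-type library B (adjusted p = 0.146), without the knockout XEN library labelled C4 (adjusted p = 0.152) or without the 5-3 knockout XEN library (adjusted p = 0.09). Wnt7a was not called without the ES library labelled C4 (adjusted p = 0.052), without the first 5-3 ES library (adjusted p = 0.0535), without the second 5-3 ES library (adjusted p = 0.0577), without wild-type library B (adjusted p = 0.0995) or without the knockout XEN library labelled C4 (adjusted p = 0.251), and its value ran from 1.91 to 6.57. Over ES cells the wild-type value of Wnt7a was 1.58 ± 1.05 (adjusted p = 0.218), and it turned to -1.65 without wild-type library A and passed without library B (2.51, adjusted p = 0.0410).

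Wnt5a, the main ligand of β-catenin-independent signalling, was at 7.13, 1.1 and 1.24 CPM in knockout ES cells, 13.6 and 13.6 in wild-type XEN cells and 39.2 and 24.7 in knockout XEN cells. Among the ES libraries the one labelled C4 was far above both 5-3 libraries. Wnt5a was higher than in ES cells both in knockout XEN cells, by 3.34 ± 0.74 (adjusted p = 0.00435), and in wild-type XEN cells, by 2.11 ± 0.73 (adjusted p = 0.0342). The latter was lost without the first 5-3 ES library (adjusted p = 0.0647), without the second 5-3 ES library (adjusted p = 0.0856), without wild-type library A (adjusted p = 0.0887), without wild-type library B (adjusted p = 0.0952) or without the knockout XEN library labelled C4 (adjusted p = 0.0501), and without the ES library labelled C4 the values were 4.67 and 3.51. Between the XEN groups the difference was 1.23 ± 0.80 (adjusted p = 0.242), with the knockout libraries above the wild-type libraries. With the line as a replicate block it passed (adjusted p = 0.0451), and without the ES library labelled C4 it passed at an adjusted p of 0.00937. Wnt2, known from lung and placenta, had 0, 0.048 and 0 CPM in knockout ES cells, 0.767 and 0.221 in wild-type XEN cells and 3.41 and 1.23 in knockout XEN cells. All XEN libraries exceeded the ES libraries, in which it had 2 counts in all. By counts, the level in knockout XEN cells was 125 (95% counting interval 33.7 to 1051) times that in ES cells (adjusted p = 0.000627), and the level in wild-type XEN cells was 33 (95% counting interval 8.5 to 283) times (adjusted p = 0.00663), a call lost without wild-type library A (adjusted p = 0.0539). Between the XEN groups the difference did not pass, at 2.19 ± 0.89 (adjusted p = 0.0756).

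Ligands more abundant in ES cells were few. Wnt7b had the largest share of the ligand sum there, and it passed in no comparison: its levels were 6.91, 11.6 and 11 CPM in knockout ES cells, 6.3 and 5.25 in wild-type XEN cells and 11.3 and 4.28 in knockout XEN cells. Wnt3a, a standard activator of β-catenin signalling, was at 0.12, 0.648 and 0.64 CPM in knockout ES cells, 0.0274 and 0.0276 in wild-type XEN cells and 0 and 0.0923 in knockout XEN cells. By counts, the level in ES cells was 17.4 (95% counting interval 4.64 to 147) times that in wild-type XEN cells (adjusted p = 0.015) and 7.41 (95% counting interval 2.42 to 36.9) times that in knockout XEN cells (adjusted p = 0.0417). The first call was lost without wild-type library A (adjusted p = 0.0903) or without wild-type library B (adjusted p = 0.0878) and the second without wild-type library A (adjusted p = 0.0631), without wild-type library B (adjusted p = 0.0655), without the knockout XEN library labelled C4 (adjusted p = 0.151) or without the 5-3 knockout XEN library (adjusted p = 0.0669). Both XEN groups had 3 counts or fewer, so no fold is given between them. Wnt8a, which is made in the primitive streak, was at 0.192, 1.2 and 1.38 CPM in knockout ES cells, 0.0548 and 0.0553 in wild-type XEN cells and 0.508 and 0.185 in knockout XEN cells. It fell by 3.99 ± 1.06 (adjusted p = 0.0114) from ES to wild-type XEN cells, a call lost without wild-type library A (adjusted p = 0.0675) or without wild-type library B (adjusted p = 0.0687), and the ES library labelled C4 lay well below both 5-3 libraries. Without that library the difference between the XEN groups, 2.45 ± 1.21 (adjusted p = 0.132), passed (adjusted p = 0.0372). Wnt8b and Wnt10a stayed at 1.31 CPM or lower in every library and passed in no comparison.

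The make-up of the ligand sum differed between the groups. Wnt7b took 35.9% to 38.9% of the CPM per kb in ES cells, and Wnt5a took 23.2% in the library labelled C4 but 2.31% and 2.56% in the 5-3 libraries. In wild-type XEN cells Wnt4 took 25.01% to 25.2%, Wnt9a 21.3% to 27.5% and Wnt11 13.8% to 16.4%. In knockout XEN cells Wnt9a took 48.3% to 57.3%, Wnt2b 11.0% to 12.7% and Wnt4 7.996% to 19.5%, with the lower Wnt4 share in the library labelled C4. These shares are descriptions and were not tested.

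**Figure D2:**
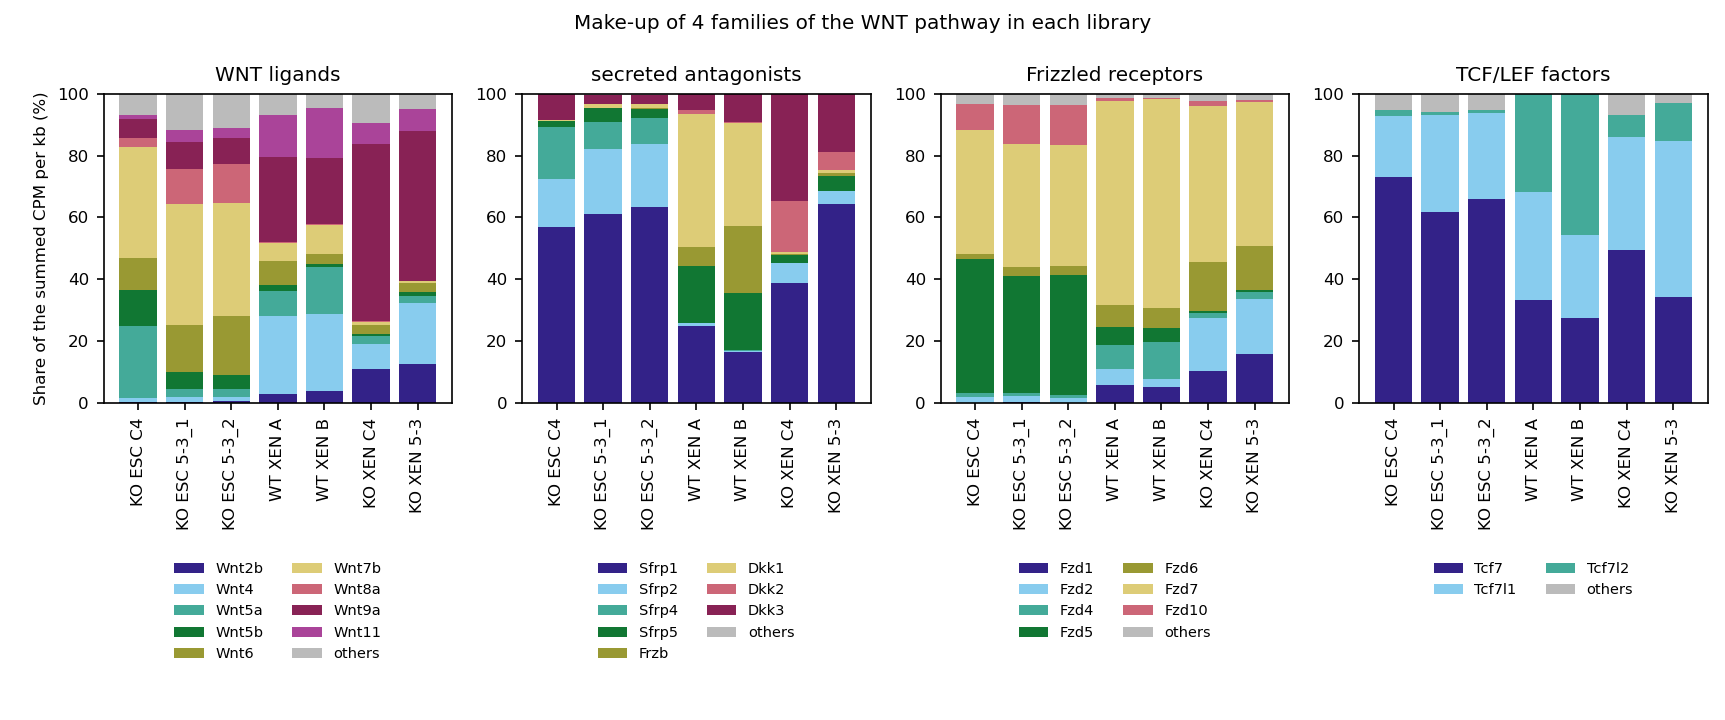
Share of each gene in the summed CPM per kb of exon of 4 families (percent, stacked to 100), 1 bar per library. Wnt9a is the widest band of the ligand bar in both knockout XEN libraries, Dkk1 is wide only in the wild-type XEN antagonist bars, and Fzd5 is wide only in the ES receptor bars.

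Several ligand genes lie side by side on a chromosome. Wnt3a (ENSMUSG00000009900, chromosome 11, 59248033 to 59290752, minus strand) and Wnt9a lie head to head with 16175 bases between them, and Wnt9a rose in both XEN groups over ES cells while Wnt3a fell. Wnt10b and Wnt1 on chromosome 15 are head to head with 11706 bases between them, and Wnt1 had 15 counts over the 7 libraries and was not tested. Wnt9b and Wnt3 on chromosome 11 are head to head at 24328 bases, and Wnt9b, with 23 counts, was not tested. Wnt6 and Wnt10a on chromosome 1 lie on the same strand 6193 bases apart. Wnt6 was called between the XEN groups, whereas the difference of Wnt10a was 0.23 ± 0.79 (adjusted p = 0.84).

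R-spondins bind LGR receptors and keep Frizzled receptors at the cell surface, and 3 of the 4 genes were tested. Rspo2 was the 1 called between the XEN groups, with 0.048, 0.072 and 0.12 CPM in knockout ES cells, 0.137 and 0 in wild-type XEN cells and 1.81 and 1.32 in knockout XEN cells. It rose by 4.43 ± 0.96 (adjusted p = 0.00713), and wild-type XEN and ES libraries overlapped near 0. With wild-type library A alone in its group the value was 3.47, and library B had no count. Rspo3 measured 0.264, 0 and 0.0801 CPM in knockout ES cells, 6.03 and 3.65 in wild-type XEN cells and 12 and 8.98 in knockout XEN cells. The XEN groups lay far above the ES libraries, by 5.37 in wild-type cells (adjusted p = 0.000578) and 6.48 in knockout cells (adjusted p = 0.000172), and between them the difference was 1.11 ± 0.70 (adjusted p = 0.229). Rspo1 ran the other way, at 2.3, 3.7 and 3.22 CPM in knockout ES cells, 0.411 and 0.857 in wild-type XEN cells and 1.31 and 0.4 in knockout XEN cells. It fell by 2.27 ± 0.59 (adjusted p = 0.0107) from ES to wild-type XEN cells, and in knockout XEN cells it fell by 1.94 ± 0.61 (adjusted p = 0.0209). The first call was lost without wild-type library A (adjusted p = 0.0723) and the second without the 5-3 knockout XEN library (adjusted p = 0.114). By CPM per kb, Rspo1 made up 85.2% to 96.2% of the R-spondin sum in ES cells, and Rspo3 made up 72.8% to 86.8% in wild-type and 79.0% to 86.2% in knockout XEN cells.

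All 10 Frizzled receptor genes were tested. Between the XEN groups 6 were higher in knockout cells, 2 were lower and 2 did not pass, where 22.3% of all genes were higher and 23.9% lower. The summed CPM per kb of the receptor genes was 46.9 ± 2.46 (SD, n = 3) in knockout ES cells, 95.9 ± 8.79 (n = 2) in wild-type XEN cells and 197 ± 11.7 (n = 2) in knockout XEN cells, and the groups did not overlap.

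Fzd5 (ENSMUSG00000045005, chromosome 1, 64730558 to 64737751, minus strand), which is known to be needed in the yolk sac, and Fzd7, a receptor known from pluripotent stem cells, carried most of the sum in ES cells. Fzd5 was at 144, 115 and 130.0 CPM in knockout ES cells, 41.3 and 28.4 in wild-type XEN cells and 9.95 and 10.7 in knockout XEN cells. The groups did not overlap. Fzd5 was lower in wild-type XEN than in knockout ES cells by 1.89 ± 0.20 (adjusted p = 0.000132). In knockout XEN cells it was lower than in wild-type XEN cells by 1.76 ± 0.22 (adjusted p = 0.000673). Fzd7 measured 87.2, 79.5 and 85.9 CPM in knockout ES cells, 305 and 274 in wild-type XEN cells and 431 and 434 in knockout XEN cells. It was higher by 1.78 ± 0.13 (adjusted p = 1.92e-05) in wild-type XEN than in knockout ES cells. In knockout over wild-type XEN cells it was higher by 0.58 (adjusted p = 0.0113). That last call was lost without wild-type library B (adjusted p = 0.0598) or without the 5-3 knockout XEN library (adjusted p = 0.0876). Fzd5 made up 37.7% to 43.4% of the receptor sum in ES cells and 0.752% to 0.761% in knockout XEN cells, while Fzd7 made up 39.1% to 40.0% in ES, 66.0% to 67.4% in wild-type XEN and 46.6% to 50.3% in knockout XEN cells.

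Fzd1, Fzd2, Fzd6 and Fzd8 were lowest in knockout ES cells, higher in wild-type XEN cells and highest in knockout XEN cells. Fzd1 was at 0.288, 0.432 and 0.3 CPM in knockout ES cells, 25.6 and 19.6 in wild-type XEN cells and 82.8 and 136 in knockout XEN cells, so it was close to absent in ES cells. It rose by 2.28 ± 0.28 (adjusted p = 0.000658) between the XEN groups and by 6.04 ± 0.31 (adjusted p = 6.07e-06) from ES to wild-type XEN cells. Fzd2 was found at 3.24, 3.48 and 2.58 CPM in knockout ES cells, 19.2 and 8.82 in wild-type XEN cells and 119 and 133 in knockout XEN cells, a rise by 3.17 ± 0.36 (adjusted p = 0.000449) between the XEN groups, the value being 3.76 without wild-type library A. Fzd6, which is known for its part in planar cell polarity, was at 3.77, 6.03 and 6.74 CPM in knockout ES cells, 34.6 and 27.9 in wild-type XEN cells and 144 and 140.0 in knockout XEN cells and rose by 2.18 ± 0.27 (adjusted p = 0.000665). Fzd8 was at 2.76, 1.46 and 2.2 CPM in knockout ES cells, 4.11 and 3.46 in wild-type XEN cells and 17.5 and 17.8 in knockout XEN cells and rose by 2.22 ± 0.34 (adjusted p = 0.00155). From ES to wild-type XEN cells the rise of Fzd8, 0.82 (adjusted p = 0.0439), was lost in 8 of the 14 alternative analyses, among them each omission of 1 library other than the ES library labelled C4. In all 4 genes both knockout XEN libraries stood above every other library. Fzd2, Fzd6 and Fzd1 made up 17.2% to 17.7%, 14.1% to 15.8% and 10.4% to 15.8% of the receptor sum in knockout XEN cells.

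Fzd4, the receptor of Norrin as well as of WNT ligands, was highest in wild-type XEN cells, with 3.84, 3.12 and 3.74 CPM in knockout ES cells, 53.6 and 71.7 in wild-type XEN cells and 18.2 and 33.5 in knockout XEN cells. It rose by 4.13 ± 0.29 (adjusted p = 1.84e-05) from ES to wild-type XEN cells and fell by 1.27 ± 0.30 (adjusted p = 0.0106) in knockout XEN cells, a call lost without wild-type library B (adjusted p = 0.0686). Without the 5-3 knockout XEN library the value was -1.87. Fzd10 was lowest in wild-type XEN cells, at 13.2, 18.2 and 20.3 CPM in knockout ES cells, 2.69 and 0.829 in wild-type XEN cells and 11.3 and 3.66 in knockout XEN cells. It fell by 3.29 ± 0.64 (adjusted p = 0.00272) from ES to wild-type XEN cells and was higher by 2.06 ± 0.65 (adjusted p = 0.0333) in knockout than in wild-type XEN cells, the last call being lost in 6 of the 14 alternative analyses. Among these were omissions of 1 library, without the first 5-3 ES library (adjusted p = 0.0503), without the second 5-3 ES library (adjusted p = 0.0563), without wild-type library B (adjusted p = 0.153) or without the knockout XEN library labelled C4 (adjusted p = 0.233), and the value ran from 1.06 to 3.04. Fzd9 was at 1.22, 2.21 and 2.06 CPM in knockout ES cells, 0.411 and 0.221 in wild-type XEN cells and 0.944 and 0.523 in knockout XEN cells and was below its ES level in both XEN groups, with differences of -2.52 (adjusted p = 0.00422) and -1.37 (adjusted p = 0.0443). The Fzd9 call in knockout XEN cells was lost with the line as a replicate block (adjusted p = 0.0677) and without the first 5-3 ES library (adjusted p = 0.107), without the second 5-3 ES library (adjusted p = 0.0772), without the knockout XEN library labelled C4 (adjusted p = 0.0538) or without the 5-3 knockout XEN library (adjusted p = 0.225). Fzd3, a receptor of axon guidance, was at 8.38, 4.61 and 6.24 CPM in knockout ES cells, 7.48 and 9.35 in wild-type XEN cells and 12.1 and 11.9 in knockout XEN cells. It was higher by 0.91 ± 0.29 (adjusted p = 0.0221) in knockout XEN than in ES cells, a call lost without the first 5-3 ES library (adjusted p = 0.0774), without the second 5-3 ES library (adjusted p = 0.0815), without the knockout XEN library labelled C4 (adjusted p = 0.075) or without the 5-3 knockout XEN library (adjusted p = 0.0918).

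The LRP co-receptors differed less. Lrp5 measured 46.2, 42.2 and 37 CPM in knockout ES cells, 126 and 89.2 in wild-type XEN cells and 102 and 108 in knockout XEN cells. It was higher than in ES cells in both XEN groups, by 1.36 (adjusted p = 0.00036) and 1.33 (adjusted p = 0.000305), and the XEN groups differed by -0.04 ± 0.20 (adjusted p = 0.904). Lrp6 was at 149, 91.1 and 103 CPM in knockout ES cells, 159 and 201 in wild-type XEN cells and 117 and 121 in knockout XEN cells. It passed in wild-type XEN cells over ES cells, at 0.66 ± 0.22 (adjusted p = 0.0309), though not without the first 5-3 ES library (adjusted p = 0.0835), without the second 5-3 ES library (adjusted p = 0.102) or without wild-type library B (adjusted p = 0.176). The difference between the XEN groups was -0.6 ± 0.25 (adjusted p = 0.0788), with both knockout libraries below both wild-type libraries, and it passed without the ES library labelled C4 (adjusted p = 0.0114). A p that misses the threshold does not show that these levels were alike.

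**Figure D3:**
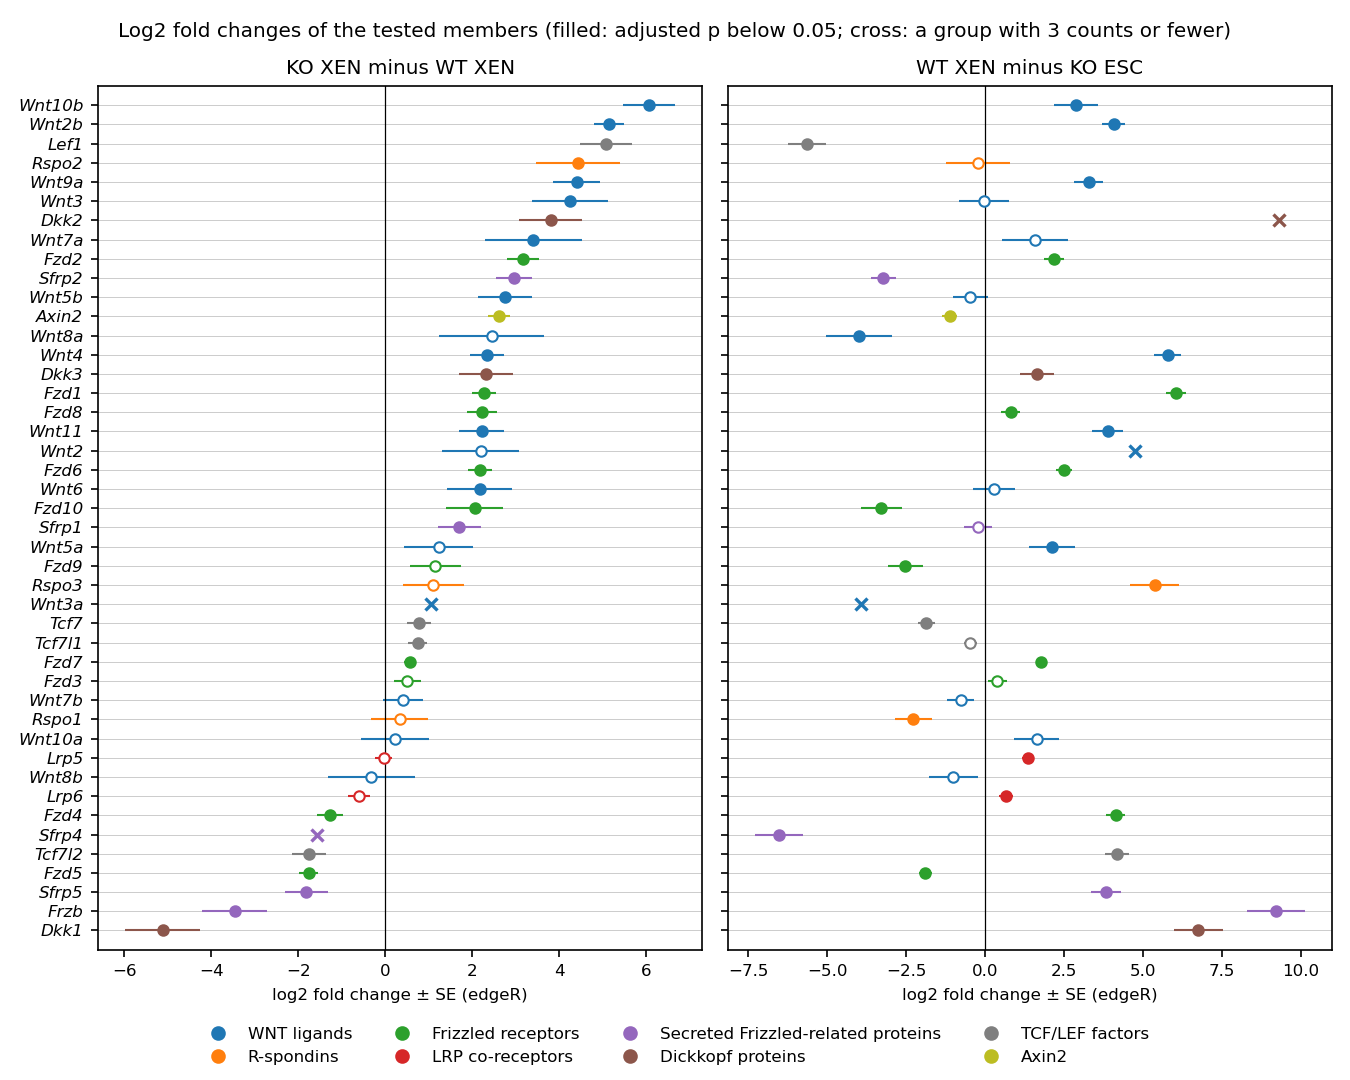
Log2 fold changes ± SE of the 44 tested genes, knockout over wild-type XEN cells and wild-type XEN over knockout ES cells. Filled points were called at an adjusted p of 0.05, open points were not, and crosses mark genes in which a group had 3 counts or fewer, whose fitted value is no bound; Wnt10b lies farthest to the right and Dkk1 farthest to the left between the XEN groups.

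The secreted antagonists, taken here by family, split. They include Dkk2, which can also strengthen signalling, and the divergent Dkk3. Of the 10 genes 8 were tested, and in knockout against wild-type XEN cells 4 were higher and 3 lower, and 1 did not pass, with a median of 0.07. Of all genes 22.3% were higher and 23.9% lower there. Summed CPM per kb was 26.3 ± 4.06 (SD, n = 3) in ES cells, 62.8 ± 21.7 (n = 2) in wild-type and 82.3 ± 21.5 (n = 2) in knockout XEN cells, and the XEN groups overlapped.

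Dkk1 (ENSMUSG00000024868, chromosome 19, 30545863 to 30549665, minus strand) binds LRP6 and blocks β-catenin signalling, and its protein from the anterior visceral endoderm is known to help pattern the embryo's front end. It was at 0.048, 0.672 and 0.901 CPM in knockout ES cells, 81.7 and 38.2 in wild-type XEN cells and 1.09 and 2.22 in knockout XEN cells. Wild-type XEN cells stood far above all other libraries. Dkk1 rose by 6.76 ± 0.78 (adjusted p = 0.000181) from ES to wild-type XEN cells, or 108-fold, and fell by 5.11 ± 0.86 (adjusted p = 0.00231) in knockout XEN cells, or 34.6-fold. Without the 5-3 knockout XEN library the value was -5.86, and without wild-type library A the rise over ES cells was 6.16. Knockout XEN cells and ES cells differed by 1.65 ± 0.78 (adjusted p = 0.0905), a difference that passed with the line as a replicate block (adjusted p = 0.0184). Frzb (ENSMUSG00000027004, chromosome 2, 80411970 to 80447625, minus strand), also called Sfrp3, was at 0, 0.048 and 0.06 CPM in knockout ES cells, 15.2 and 33.2 in wild-type XEN cells and 0.653 and 3.51 in knockout XEN cells. It too was highest in wild-type XEN cells, and every XEN library exceeded the ES libraries. It fell by 3.46 ± 0.75 (adjusted p = 0.00695) from wild-type to knockout XEN cells, with fitted values from -5.29 without the 5-3 knockout XEN library to -2.78 without the library labelled C4, and the call was lost without wild-type library B (adjusted p = 0.0513). Sfrp5, a marker of the anterior visceral endoderm, was at 1.22, 2.04 and 1.4 CPM in knockout ES cells, 27.5 and 16.7 in wild-type XEN cells and 3.27 and 9.11 in knockout XEN cells. It rose by 3.83 ± 0.46 (adjusted p = 0.000239) from ES to wild-type XEN cells and fell by 1.81 ± 0.50 (adjusted p = 0.0194) in knockout XEN cells. That last call was lost without wild-type library A (adjusted p = 0.101) or without the knockout XEN library labelled C4 (adjusted p = 0.075), and without the 5-3 knockout XEN library the value was -2.84. Against ES cells the value of Sfrp5 in knockout XEN cells was 2.02 ± 0.45 (adjusted p = 0.00459).

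Dkk2 (ENSMUSG00000028031, chromosome 3, 132085292 to 132180304, plus strand), which can weaken or strengthen signalling depending on the Kremen co-receptors, was at 0, 0 and 0 CPM in knockout ES cells, 3.48 and 0.885 in wild-type XEN cells and 41.1 and 20.3 in knockout XEN cells. It had no count in any ES library. Against the 3 counts over the group that a count of 0 allows, the level was at least 97.2-fold higher in wild-type XEN cells (adjusted p = 0.00127) and at least 1178-fold higher in knockout XEN cells (adjusted p = 0.000139). From wild-type to knockout XEN cells it rose by 3.81 ± 0.72 (adjusted p = 0.00761), and the value ran from 3.13 without wild-type library B to 5.01 without wild-type library A. Dkk3, a divergent family member, was at 8.79, 2.5 and 2.16 CPM in knockout ES cells, 13.7 and 14.3 in wild-type XEN cells and 78.1 and 61.6 in knockout XEN cells. Knockout XEN libraries were highest and the ES library labelled C4 was above both 5-3 libraries. It rose by 2.32 ± 0.61 (adjusted p = 0.0164) between the XEN groups, and this call was lost without wild-type library A (adjusted p = 0.0822), without wild-type library B (adjusted p = 0.0865) or without the knockout XEN library labelled C4 (adjusted p = 0.068).

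Sfrp1, the main antagonist of the ES libraries by CPM per kb, was at 77.1, 64.7 and 65.7 CPM in knockout ES cells, 84.9 and 34 in wild-type XEN cells and 114 and 274 in knockout XEN cells. It rose by 1.71 ± 0.49 (adjusted p = 0.0221) between the XEN groups, although the wild-type library A lay above all ES libraries and B below them. The call was lost without wild-type library B (adjusted p = 0.108) or without the 5-3 knockout XEN library (adjusted p = 0.206), and its value was 2.46 without wild-type library A and 0.85 without the 5-3 knockout XEN library. Sfrp2 had a dip in wild-type XEN cells, with 10.3, 11 and 10.4 CPM in knockout ES cells, 1.62 and 0.636 in wild-type XEN cells and 9.15 and 8.52 in knockout XEN cells. It fell by 3.23 ± 0.40 (adjusted p = 0.000281) from ES to wild-type XEN cells and was higher by 2.97 ± 0.42 (adjusted p = 0.00108) in knockout than in wild-type XEN cells. Without wild-type library A these values were -4.01 and 3.71. Sfrp4 was an ES gene, at 21.9, 8.89 and 8.17 CPM in knockout ES cells, 0.0548 and 0.221 in wild-type XEN cells and 0.0726 and 0.0308 in knockout XEN cells. It fell by 6.52 ± 0.76 (adjusted p = 0.000198) from ES to wild-type XEN cells, the value being -5.93 without the ES library labelled C4, -5.82 without wild-type library A and -7.79 without wild-type library B, and the ES level was 293 (95% counting interval 81.1 to 2425) times that in knockout XEN cells by counts (adjusted p = 0.000123).

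In the antagonist sum, Sfrp1 made up 56.9% to 63.4% of the CPM per kb in ES cells. Wild-type XEN cells had Dkk1 at 33.2% to 43.1%, Frzb at 6.01% to 21.6% and Sfrp5 at 18.5%. In knockout XEN cells Sfrp1 made up 38.8% to 64.3%, Dkk3 18.8% to 34.6%, Dkk2 5.63% to 16.5% and Dkk1 0.668% to 0.936%. The 5-3 library had the larger Sfrp1 share and the library labelled C4 the larger Dkk2 and Dkk3 shares.

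The antagonists lower in knockout than in wild-type XEN cells, Dkk1, Frzb and Sfrp5, were higher in wild-type XEN than in ES cells. Most endoderm markers had the same directions. Both comparisons use the same wild-type XEN libraries, and 32.2% of all genes were higher in wild-type XEN than in ES cells. In knockout XEN against ES cells Frzb and Sfrp5 were higher, as were 9 of the 12 primitive and visceral endoderm markers. Dkk1 did not pass there, and 34.8% of all genes were called higher. Summed over 12 primitive and visceral endoderm markers the level was 3632 to 4478 CPM in wild-type XEN cells, 437 to 673 in knockout XEN cells and 16.5 to 44.7 in ES cells. For 7 parietal endoderm markers it was 33369 to 54769 in wild-type and 7250 to 8531 in knockout XEN cells. Between the XEN groups 4 of these 7 were lower and 3 did not pass, where 23.9% of all genes were lower. Of the 10 fibroblast and mesenchyme markers, 8 were higher in knockout than in wild-type XEN cells, where 22.3% of all genes were. In wild-type XEN against ES cells 9 of them were higher, where 32.2% of all genes were. The 10 markers summed to 562 to 1229 CPM in wild-type XEN cells, 6990 to 9067 in knockout XEN cells and 32.3 to 45.1 in ES cells. Among the 15 ligands and Frizzled receptors that were higher in knockout than in wild-type XEN cells, 10 were also higher in wild-type XEN than in ES cells. Of all genes 32.2% were higher there. The 15 were chosen by a comparison that shares the wild-type XEN libraries. In wild-type XEN against ES cells Wnt3, Wnt5b, Wnt6 and Wnt7a did not pass, and Fzd10 was lower. Col3a1 and Postn of the fibroblast and mesenchyme list were at 0 in the ES libraries. Neural markers were at 58.3 to 87.9 CPM in wild-type and 458 to 531 in knockout XEN cells, with Neurog1 at 0 in both. Of the 6 tested, 4 were higher in knockout than in wild-type XEN cells and 2 did not pass. Trophoblast markers summed to 243 to 432 CPM in wild-type and 823 to 1055 in knockout XEN cells. Yet of 7 tested 0 were higher and 2 were lower, so a sum need not follow the calls of its list. Mitochondrial genes took 1.94% to 2.64% of counts in wild-type and 0.781% to 0.979% in knockout XEN cells. The part of these lists and of this share in the WNT results was not tested. In bulk RNA, fewer cells of a type and less RNA per cell cannot be told apart.

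All 4 TCF/LEF genes were called between the XEN groups, 3 higher and 1 lower in knockout cells, where 22.3% of all genes were higher and 23.9% lower. Lef1 (ENSMUSG00000027985, chromosome 3, 131110471 to 131224356, plus strand), an activating partner of β-catenin, was at 18.7, 19.1 and 16 CPM in knockout ES cells, 0.493 and 0.221 in wild-type XEN cells and 18.4 and 6.37 in knockout XEN cells. Wild-type XEN libraries were far below all others, and the knockout XEN library labelled C4 was level with ES cells while the 5-3 library was lower. Lef1 fell by 5.64 ± 0.60 (adjusted p = 0.000124) from ES to wild-type XEN cells and was higher by 5.08 ± 0.61 (adjusted p = 0.00055) in knockout XEN cells, a value of 4.14 without the library labelled C4. Knockout XEN and ES cells differed by -0.55 ± 0.44 (adjusted p = 0.291), and without both libraries labelled C4 by -1.46 (adjusted p = 0.0273).

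Tcf7l2 had the opposite order of groups. Known for its part in the gut and in metabolism, it was at 6.38, 3.67 and 3.1 CPM in knockout ES cells, 57.4 and 101 in wild-type XEN cells and 20.04 and 26.9 in knockout XEN cells. It rose by 4.17 ± 0.37 (adjusted p = 5.28e-05) from ES to wild-type XEN cells and fell by 1.75 ± 0.40 (adjusted p = 0.00846) in knockout XEN cells. The last call was lost without wild-type library B (adjusted p = 0.0603) or without the knockout XEN library labelled C4 (adjusted p = 0.0617). Tcf7, which encodes TCF1, was at 75.6, 61 and 60.8 CPM in knockout ES cells, 18.1 and 18.2 in wild-type XEN cells and 40.3 and 22.3 in knockout XEN cells. It was below its ES level in both XEN groups, with differences of -1.86 (adjusted p = 0.000544) and -1.08 (adjusted p = 0.00606). Tcf7l1, a repressor that limits the pluripotency network in ES cells, was at 30.4, 45.9 and 38.2 CPM in knockout ES cells, 28.5 and 26.7 in wild-type XEN cells and 44 and 48.7 in knockout XEN cells. Between the XEN groups Tcf7 was higher in knockout cells by 0.78 (adjusted p = 0.0488) and Tcf7l1 by 0.75 (adjusted p = 0.0233), and these calls were lost in 10 and 6 of the 14 alternative analyses. Leaving out any single library but the 5-3 knockout XEN library ended the call of Tcf7, at adjusted p-values from 0.0653 to 0.355. The call of Tcf7l1 was lost without the second 5-3 ES library (adjusted p = 0.0611), without wild-type library A (adjusted p = 0.0951), without wild-type library B (adjusted p = 0.109), without the knockout XEN library labelled C4 (adjusted p = 0.0634) or without the 5-3 knockout XEN library (adjusted p = 0.177). Per kb of exon, Tcf7 made up 61.9% to 73.1% of the family sum in ES cells, Tcf7l2 31.5% to 45.5% in wild-type XEN cells and 7.38% to 12.4% in knockout XEN cells.

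Axin2 (ENSMUSG00000000142, chromosome 11, 108920349 to 108950783, plus strand) is a feedback inhibitor of the pathway and a widely used readout of β-catenin signalling. It was at 12.2, 8.74 and 9.87 CPM in knockout ES cells, 4.93 and 4.51 in wild-type XEN cells and 31.3 and 26.4 in knockout XEN cells. The groups did not overlap: wild-type XEN cells were lowest and knockout XEN cells highest. Axin2 rose by 2.61 ± 0.25 (adjusted p = 0.000282) in knockout over wild-type XEN cells and by 1.49 ± 0.21 (adjusted p = 0.000421) over ES cells, and it fell by 1.12 ± 0.23 (adjusted p = 0.00321) from ES to wild-type XEN cells. None of the 14 alternative analyses ended the call between the XEN groups, and its value stayed between 2.49 and 2.64.

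Other known target genes gave a mixed picture. Of those below Sp5, Notum, Znrf3, Rnf43, Lgr5, Ccnd1, Myc, Cdx2, T and Sp8 were chosen after their values were seen. Of 29 tested genes on a list of known β-catenin targets, 12 were higher in knockout than in wild-type XEN cells, 3 were lower and 14 did not pass, with a median of 1.10. Thus 51.7% were called, more of them higher than lower, where 46.2% of all genes were called, 22.3% higher and 23.9% lower. Lists of this kind were fixed with earlier results known. The feedback inhibitor Nkd1 was at 1.46, 0.913 and 0.58 CPM in knockout ES cells, 5.21 and 4.42 in wild-type XEN cells and 31.4 and 70.4 in knockout XEN cells and rose by 3.4 ± 0.50 (adjusted p = 0.00121), the value being 2.62 without the 5-3 knockout XEN library. Apcdd1, an inhibitor at the cell surface, was at 5.02, 8.57 and 7.71 CPM in knockout ES cells, 3.7 and 2.54 in wild-type XEN cells and 15.2 and 14.6 in knockout XEN cells and rose by 2.25 ± 0.34 (adjusted p = 0.00151). Both had their highest values in the knockout XEN libraries. Sp5, a direct target of β-catenin, was at 1.15, 0.408 and 0.7 CPM in knockout ES cells, 0.0548 and 0.0276 in wild-type XEN cells and 0.581 and 0.4 in knockout XEN cells. By counts, 21 against 3, the level in knockout XEN cells was 10.99 (95% counting interval 3.28 to 57.6) times that in wild-type XEN cells (adjusted p = 0.0117), a call lost without wild-type library B (adjusted p = 0.0775). Notum, which encodes an enzyme that inactivates WNT ligands, was at 35, 50.9 and 49.4 CPM in knockout ES cells, 0.795 and 0.47 in wild-type XEN cells and 1.31 and 0.369 in knockout XEN cells. It was an ES gene that fell by 5.94 ± 0.54 (adjusted p = 3.39e-05) in knockout XEN cells, and between the XEN groups its difference was 0.21 ± 0.58 (adjusted p = 0.801).

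The ubiquitin ligase genes Znrf3 and Rnf43, which remove Frizzled receptors from the surface, did not pass between the XEN groups, with -0.1 ± 0.21 (adjusted p = 0.743) and 0.3 ± 0.42 (adjusted p = 0.597). The R-spondin receptor gene Lgr5 did not pass either, with 1.93 ± 0.70 (adjusted p = 0.0528). Of the growth genes, Ccnd1, a cyclin of the G1 phase, was at 175, 318 and 335 CPM in knockout ES cells, 16.6 and 8.6 in wild-type XEN cells and 53.9 and 52.2 in knockout XEN cells. It was lower in both XEN groups than in ES cells and higher by 2.07 ± 0.38 (adjusted p = 0.00351) in knockout than in wild-type XEN cells. Myc was at 22.8, 83.6 and 78.7 CPM in knockout ES cells, 8.27 and 4.4 in wild-type XEN cells and 90.02 and 68 in knockout XEN cells and rose by 3.64 ± 0.63 (adjusted p = 0.00257) between the XEN groups. Sall4, a pluripotency factor on the same list, was at 132 and 208 CPM in wild-type and 9.44 and 7.54 in knockout XEN cells and fell by 4.34 ± 0.27 (adjusted p = 0.000131). Cdx2 of that list was at 0.356 and 1.16 CPM in wild-type and 0 and 0 in knockout XEN cells. It was called lower in knockout XEN cells (adjusted p = 0.013), and no fold is given. T and Sp8 did not pass (adjusted p = 0.443 and 0.0942). For T this decides nothing, since it had 1 count in wild-type library A and 0 in the other XEN libraries. Cdx2, T and Sp8 were not followed in the alternative analyses. Sox9, a chondrocyte and progenitor factor, was at 3.78 and 3.59 CPM in wild-type and 36.4 and 28.1 in knockout XEN cells and rose by 3.13 ± 0.43 (adjusted p = 0.000969), and Ephb2, an ephrin receptor, was at 43.7 and 57.1 CPM in wild-type and 185 and 276 in knockout XEN cells and rose by 2.19 ± 0.23 (adjusted p = 0.000358). Cd44, a cell surface receptor for hyaluronan, was among the targets with the smallest adjusted p against ES cells, higher by 5.07 ± 0.25 (adjusted p = 2.78e-06) in knockout XEN cells, with both knockout XEN libraries above all ES libraries. The fall of Sall4 moved with the 8 ES cell markers, whose sum was 917 to 999 CPM in wild-type and 65.7 to 95.2 in knockout XEN cells, and the part of those markers was not tested.

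**Figure D4:**
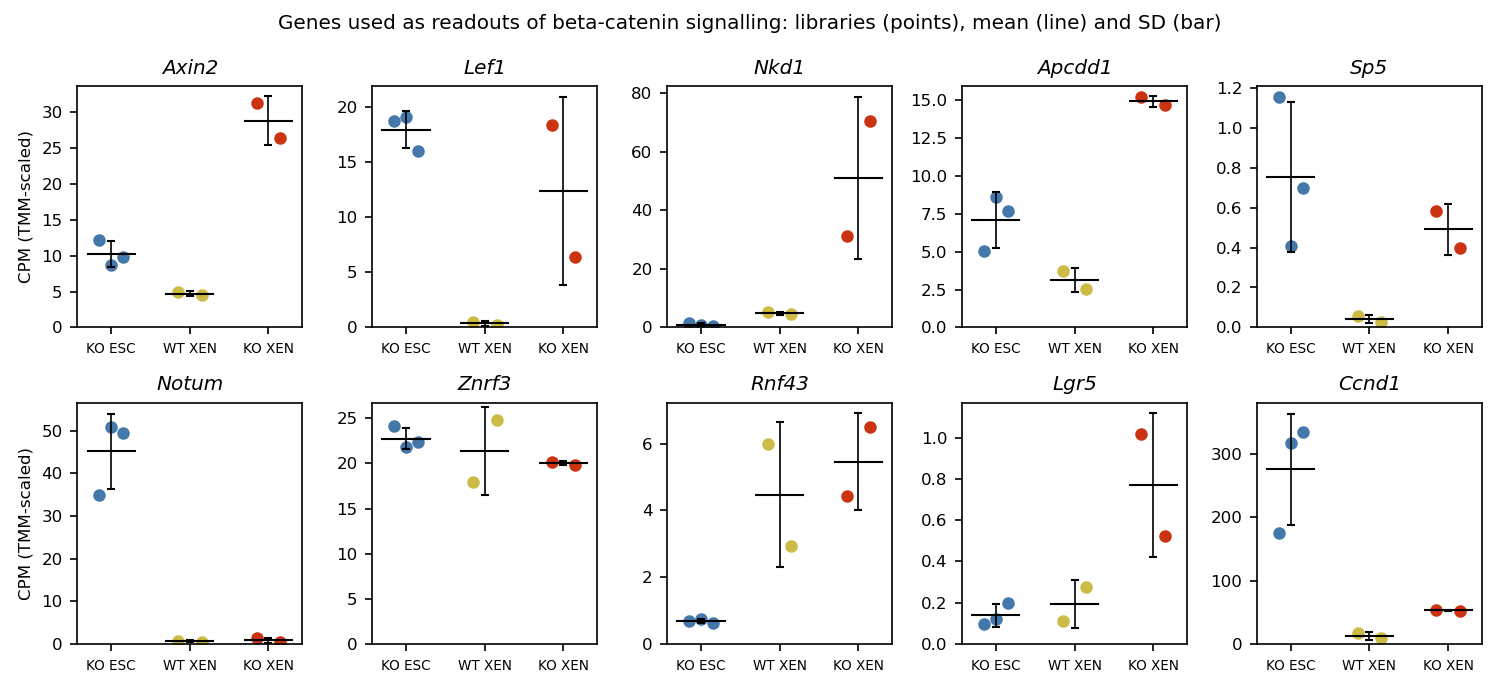
CPM per library (points), group mean and SD (bars) of Axin2, Lef1 and 8 other genes known as β-catenin targets or feedback regulators. Axin2, Nkd1 and Apcdd1 are highest in both knockout XEN libraries, while Notum and Ccnd1 are highest in knockout ES cells.

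Other parts of the pathway are given by list for knockout against wild-type XEN cells, where 22.3% of all genes were called higher and 23.9% lower. Some genes, such as Apcdd1 and Nkd1, are also on the list of targets above, so the counts of the lists overlap. Of 11 tested genes for secretion and modification of WNT ligands, 6 were higher, 1 was lower and 4 did not pass, with a median of 2.25 and 63.6% called. Wls, the carrier that takes WNT ligands to the cell surface, was at 3.77, 1.71 and 1.78 CPM in knockout ES cells, 115 and 108 in wild-type XEN cells and 696 and 584 in knockout XEN cells and rose by 2.52 ± 0.35 (adjusted p = 0.000992). Trabd2b, also called Tiki2, a protease that inactivates WNT ligands, was at 0.048, 0.072 and 0.04 CPM in knockout ES cells, 31.6 and 21.8 in wild-type XEN cells and 229 and 320.0 in knockout XEN cells and rose by 3.36 ± 0.25 (adjusted p = 0.000163). The 1 gene that was lower was Porcn, the acyltransferase that WNT ligands need for secretion, at 22.6, 41.8 and 39.2 CPM in knockout ES cells, 74.6 and 36.4 in wild-type XEN cells and 7.04 and 21.9 in knockout XEN cells, and it fell by 1.92 ± 0.56 (adjusted p = 0.0247). Porcn was singled out after its values were seen, and its call was lost without wild-type library A (adjusted p = 0.134) or without the knockout XEN library labelled C4 (adjusted p = 0.101), and its value was -3.06 without the 5-3 knockout XEN library. Sdc1, a heparan sulphate proteoglycan, was at 24.5 and 11.53 CPM in wild-type and 194 and 137 in knockout XEN cells and rose by 3.2 ± 0.38 (adjusted p = 0.000561). Igfbp4, a secreted WNT inhibitor, was at 25.8 and 17.2 CPM in wild-type and 89.1 and 116 in knockout XEN cells and rose by 2.26 ± 0.35 (adjusted p = 0.00165). Shisa3 was named for its adjusted p against ES cells, over which it was higher by 6.15 in knockout XEN cells, and between the XEN groups it did not pass, at 0.42 ± 0.28 (adjusted p = 0.262).

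Of 15 other receptor genes, 8 were higher, none was lower and 7 did not pass, with a median of 0.79 and 53.3% called. The pseudokinase gene Ptk7 was at 83, 106 and 109 CPM in knockout ES cells, 93 and 62.2 in wild-type XEN cells and 569.9 and 565 in knockout XEN cells and rose by 2.87 ± 0.24 (adjusted p = 0.000196). Ror2, a receptor of WNT5A, was at 7.44, 9.29 and 9.73 CPM in knockout ES cells, 24.2 and 11.1 in wild-type XEN cells and 47.9 and 94.9 in knockout XEN cells and rose by 2.02 ± 0.43 (adjusted p = 0.00646), a call lost without the 5-3 knockout XEN library (adjusted p = 0.0576), with values from 1.35 without that library to 2.62 without wild-type library A. Its relative Ror1 was at 11.6 and 9.23 CPM in wild-type and 38.3 and 65.5 in knockout XEN cells and rose by 2.31 ± 0.46 (adjusted p = 0.00477). The R-spondin receptor gene Lgr6 was at 2.78, 2.28 and 3.26 CPM in knockout ES cells, 1.32 and 0.664 in wild-type XEN cells and 43.9 and 20.6 in knockout XEN cells and rose by 5.02 ± 0.51 (adjusted p = 0.000319), the value being 4.38 without the knockout XEN library labelled C4. In all 4 genes both knockout XEN libraries were above the wild-type XEN and ES libraries. Adgra2, Lrp4 and Kremen1 were named for their adjusted p against ES cells or between the XEN groups. They were higher in knockout XEN than in ES cells by 7.89, 2.53 and 2.12, with both knockout XEN libraries above all ES libraries. Against wild-type XEN cells Adgra2 did not pass (adjusted p = 0.131), and the calls of Lrp4 (adjusted p = 0.039) and Kremen1 (adjusted p = 0.0347) were lost in 9 and 6 of the 14 alternative analyses. For Lrp4 the calls ended without the first 5-3 ES library (adjusted p = 0.0684), without the second 5-3 ES library (adjusted p = 0.076), without wild-type library A (adjusted p = 0.271), without the knockout XEN library labelled C4 (adjusted p = 0.15) or without the 5-3 knockout XEN library (adjusted p = 0.137), and for Kremen1 without the first 5-3 ES library (adjusted p = 0.0506), without the second 5-3 ES library (adjusted p = 0.068), without wild-type library A (adjusted p = 0.113), without wild-type library B (adjusted p = 0.139) or without the knockout XEN library labelled C4 (adjusted p = 0.242).

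Of 27 genes of the cytoplasmic cascade 12 were higher and 3 lower, and 12 did not pass, with a median of 0.31 and 55.6% called. Dact3, an inhibitor of Dishevelled, was at 9.18 and 3.59 CPM in wild-type and 70.9 and 109.9 in knockout XEN cells and rose by 3.82 ± 0.48 (adjusted p = 0.000678), the value being 4.59 without wild-type library A. Apc2, a relative of the destruction complex scaffold APC, was at 3.59 and 2.9 CPM in wild-type and 23.3 and 27.4 in knockout XEN cells and rose by 2.97 ± 0.43 (adjusted p = 0.00115). Dact1, Dvl3 and Csnk1d rose by 2.07 (adjusted p = 0.00337), 0.8 (adjusted p = 0.00377) and 0.65 (adjusted p = 0.0055), each with both knockout XEN libraries above both wild-type XEN libraries, and Dact1 stood at 2.7 without wild-type library A. The core genes differed less: β-catenin itself, Ctnnb1, by 0.49 ± 0.17 (adjusted p = 0.0438), Apc by -0.76 ± 0.26 (adjusted p = 0.0425), Axin1 by 0.31 ± 0.14 (adjusted p = 0.1) and Gsk3b by 0.05 ± 0.19 (adjusted p = 0.868). These 4 were chosen after their values were seen. Ctnnb1 was at 1398 and 1269 CPM in wild-type and 1642 and 2103 in knockout XEN cells and Apc at 120.2 and 177 CPM in wild-type and 97.7 and 77.3 in knockout XEN cells. The call of Ctnnb1 was lost in 9 of the 14 alternative analyses, with adjusted p-values up to 0.416, and that of Apc was lost without the second 5-3 ES library (adjusted p = 0.0507), without wild-type library B (adjusted p = 0.242), without the knockout XEN library labelled C4 (adjusted p = 0.072) or without the 5-3 knockout XEN library (adjusted p = 0.15). Of 18 nuclear cofactors 10 were higher, 1 was lower and 7 did not pass, so 61.1% were called. Pygo1, which links β-catenin to chromatin, was at 2.79 and 2.46 CPM in wild-type and 10.8 and 15.2 in knockout XEN cells and rose by 2.31 ± 0.31 (adjusted p = 0.00089). Tle1, a co-repressor of TCF factors, was at 24.3 and 32.6 CPM in wild-type and 74.8 and 65.7 in knockout XEN cells and rose by 1.31 ± 0.19 (adjusted p = 0.00122). Cdc73, a transcription elongation factor, was at 155 and 179.7 CPM in wild-type and 42.4 and 43 in knockout XEN cells and fell by 1.97 ± 0.16 (adjusted p = 0.000196). Smarca4, a chromatin remodeller, rose by 1.12 ± 0.15 (adjusted p = 0.000999) with both knockout XEN libraries above all others. Bcl9l, a partner of β-catenin, did so too, rising by 0.99 ± 0.18 (adjusted p = 0.00362), a call lost without the 5-3 knockout XEN library (adjusted p = 0.0527). Ctbp2, a co-repressor named for its change from ES cells, fell by 1.93 (adjusted p = 3.12e-05) in knockout XEN cells, with both libraries below all ES libraries.

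Of 28 genes of planar cell polarity and other β-catenin-independent signalling, 7 were higher and 6 lower, and 15 did not pass, with a median of 0.47. That is 46.4% called, near the 46.2% of all genes, so the count is no result about this list. Daam2, a formin, was at 44.9 and 37 CPM in wild-type and 239.6 and 514 in knockout XEN cells and rose by 3.2 ± 0.35 (adjusted p = 0.000388), the value being 2.46 without the 5-3 knockout XEN library. Celsr1, an atypical cadherin, was at 16.2 and 14.4 CPM in wild-type and 50.7 and 43.4 in knockout XEN cells and rose by 1.62 ± 0.18 (adjusted p = 0.00047). Rock1, a kinase of the actin skeleton, was at 69.8 and 110.3 CPM in wild-type and 24 and 21 in knockout XEN cells and fell by 2.0 ± 0.24 (adjusted p = 0.000578). Vangl1, a core polarity gene, was at 126 and 167 CPM in wild-type and 57.4 and 54.6 in knockout XEN cells and fell by 1.38 ± 0.18 (adjusted p = 0.000796). These genes moved in both directions, each without overlap of the XEN groups. Nfatc4, a transcription factor regulated by calcium, was at 13.7 and 7.82 CPM in wild-type and 46.1 and 88.6 in knockout XEN cells and rose by 2.65 ± 0.38 (adjusted p = 0.00111), the value being 2.01 without the 5-3 knockout XEN library. Prickle1 and Camk2d were named for their adjusted p against ES cells, over which they were higher by 5.86 and 6.02 in knockout XEN cells, with both libraries above all ES libraries. Without the ES library labelled C4 the value of Camk2d was 6.61.

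The knockout groups hold libraries labelled C4 and libraries labelled 5-3, and for several of the 44 genes their values lay apart. Knockout XEN cells have 1 library per line, so a difference between the lines in level was not tested by itself. When the change from ES to XEN cells was compared between the lines, a test added after the data had been examined and left with 2 residual degrees of freedom, edgeR called 0 of 18426 genes and 0 of the 44. At an unadjusted p under 0.05 there were 1844 and 8, the 8 being Wnt3, Wnt5a, Wnt7b, Wnt8a, Wnt11, Rspo1, Fzd4 and Dkk3. Without both libraries labelled C4, 21 of the 44 genes were called higher in knockout than in wild-type XEN cells and 5 lower, while over all genes 3747 were higher and 3831 lower. In knockout XEN against ES cells the same omission gave 10 lower genes where the full set gave 6, although the count over all genes went from 6314 to 5642. The genes added were Lef1, Wnt7b (-1.4, adjusted p = 0.00846), Wnt8a (adjusted p = 0.0113) and Fzd10 (adjusted p = 0.0311).

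The 6 genes not tested had few counts over all 7 libraries: 15 for Wnt1, 23 for Wnt9b, 25 for Wnt16, 29 for Rspo4, 2 for Dkk4 and 54 for Wif1. Of the 15 counts of Wnt1, 10 were in knockout XEN cells. Exons of 10 of the 50 genes overlap a gene on the opposite strand in GENCODE M21, among them Axin2, Fzd5, Fzd6, Lef1, Wnt5a, Wnt7b and Wnt11. The libraries are labelled reverse-stranded, but the strand setting of the counting is not given in the sources used here. The overlapping genes present in the file had 55 counts or fewer over the 7 libraries.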

How the data were processed

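The deposited file holds raw read counts per gene, whole numbers for 7 libraries. Per the submitters' processing notes the authors used STAR 2.4.2a and featureCounts 1.4.5-p1 with build mm10, which is GRCm38. The gene annotation and strand setting are not given in the sources used here. Gene IDs were matched to GENCODE M21 (GRCm38): 42548 of 43629 matched, and the 1081 others took 0.136% of counts. The WNT pathway genes and all gene and marker lists were chosen with earlier results of these data known.

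Genes were filtered by group with filterByExpr, leaving 18426 of 43629, and fitted with edgeR 4.0.16 (limma 3.58.1, R 4.3.3) by the quasi-likelihood test with TMM scaling, all 7 libraries in 3 groups, with 4 residual degrees of freedom. The common biological coefficient of variation was 0.268. A gene was called at a Benjamini-Hochberg adjusted p under 0.05. CPM are counts scaled to library size with the TMM factors. Where a group had no count, the fold is against 3 counts over the group, and where it had 1 to 3 counts the ratio of counts is given with an exact interval. Both cover counting error only. 3 counts over a group are 0.0225 CPM in knockout ES, 0.0413 in wild-type XEN and 0.0648 in knockout XEN cells. Members were named where they were called in a comparison with enough counts, and genes of the other lists as the up to 5 per list with the smallest adjusted p between the XEN groups and up to 3 with the smallest in knockout XEN against ES cells; exceptions are marked, and 1 gene of the other lists is not reported here. No 2 libraries agreed within sampling noise: chi-square per degree of freedom between replicates ran from 21.1 to 103.

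The labels give the same 2 lines, C4 and 5-3, in the knockout ES and XEN groups, so the line pairs these libraries. The difference between the lines in ES cells correlated with that in XEN cells over genes at r = 0.06. The 14 alternatives were RLE scaling, DESeq2 1.42.0, no count filter, a filter at 1 CPM, only the compared groups, the line as a replicate block, leaving out each library in turn and leaving out both libraries labelled C4. The script was tested on simulated counts. Promoters are from RefSeq, build GRCm38.p6.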

Additional observations from a re-analysis of the deposited data

How the results depend on the processing

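Cdx2, T and Sp8 aside, which were not followed, no called value of a named gene changed direction under the 14 alternatives. Between the XEN groups, 24 genes were called higher; leaving out 1 library at a time gave 15 to 24, lowest without wild-type library B, and the 6 lower genes became 3 to 7. All genes called higher, 4115, ran from 2511 to 4318 and all lower, 4397, from 3154 to 5113. In knockout XEN against knockout ES cells, 28 higher became 26 to 28 and 6 lower became 3 to 7, or 10 without both libraries labelled C4. All genes there ran from 5268 to 6492 higher and 5115 to 6590 lower. In wild-type XEN against knockout ES cells, 22 higher became 17 to 22, 11 lower became 8 to 12, or 13 without both libraries labelled C4, and all genes ran from 5216 to 6062 higher and 4308 to 5740 lower. The causes were not tested. With the line as a replicate block 25 and 6 genes were called between the XEN groups, and beside the calls of Wnt5a, Dkk1 and Fzd9 given above no other call of the 44 genes changed. RLE in place of TMM scaling shifted the median of all genes by at most 0.03. Calls that no alternative ended between the XEN groups were those of Axin2, Dkk1, Dkk2, Fzd1, Fzd2, Fzd5, Fzd6, Fzd8, Lef1, Rspo2, Sfrp2, Wnt2b, Wnt3, Wnt4, Wnt5b, Wnt9a and Wnt10b. The shallowest library, the knockout XEN library labelled C4, limits what can be read of genes below about 1 CPM.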
